A study of Mus musculus with 6 samples.

Results

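The transcriptional co-activators YAP and TAZ, the TEAD proteins that carry them to DNA and the Vestigial-like cofactors that bind the same TEAD surface were followed as 1 family of 10 genes. The members are Yap1, Wwtr1 (which encodes TAZ), Tead1 to Tead4 and Vgll1 to Vgll4, and all 10 were found by gene symbol among the 24749 genes of the table. RNA had been sequenced from whole kidneys of mouse embryos of mixed strain, dissected at E15.5. The knockout group of 3 libraries is labelled Foxd1cre; Yapc/c;Tazc/c, meaning a Foxd1-driven Cre recombinase with loxP-flanked alleles of both co-activator genes, and the 3 wild-type libraries are labelled Cre negative. The labels do not say whether the Cre-negative kidneys carry floxed alleles. Foxd1 drives Cre in the stromal lineage, so cells of a knockout kidney that lie outside the recombined lineage still contribute their transcripts. Which cells recombined is not given in the labels. In bulk tissue of this kind, fewer cells of a type and less RNA per cell cannot be told apart.

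YAP and TAZ sit at the end of the Hippo pathway, in which the MST kinases (Stk3, Stk4) and LATS kinases (Lats1, Lats2) phosphorylate them and hold them in the cytoplasm. Unphosphorylated YAP or TAZ enters the nucleus and, having no DNA-binding domain of its own, acts through TEAD1 to TEAD4, which recognise the core motif GGAATG. VGLL proteins bind TEADs in place of YAP and TAZ. VGLL4 is known as a co-repressor that competes with them, VGLL2 is a cofactor of skeletal muscle, VGLL3 is found in mesenchymal cells and muscle, and VGLL1 in epithelia.

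Since TEADs read this motif, the reference sequence before each member's own start was searched for it. RefSeq (GRCm38.p6) gave 11 start windows for 8 of the 10 members, and the 250 bases before each start were searched for GGAATG on either strand (CATTCC on the printed one). The motif was found for 6 of these 8 members, namely Yap1, Wwtr1, Tead3, Vgll1, Vgll3 and Vgll4, and in none of the windows of Tead2 and Vgll2, while Tead1 and Tead4 had no window. Over all RefSeq windows of this length 12.6% held it (4153 of 32851), and 14.4% of genes held it in at least 1 window. The windows of the 2 floxed genes and of the 2 VGLL genes that could be tested follow, to show where the motif lies. All 4 were printed because they hold it, and the window of Tead2, the member with the highest level, held 0 matches and is not printed. They are printed from 5′ to 3′ on the gene's strand, with the motif in capitals, and none of these bases lies in a GENCODE M21 exon of its gene.
Yap1, minus strand, chr9:8004597-8004846: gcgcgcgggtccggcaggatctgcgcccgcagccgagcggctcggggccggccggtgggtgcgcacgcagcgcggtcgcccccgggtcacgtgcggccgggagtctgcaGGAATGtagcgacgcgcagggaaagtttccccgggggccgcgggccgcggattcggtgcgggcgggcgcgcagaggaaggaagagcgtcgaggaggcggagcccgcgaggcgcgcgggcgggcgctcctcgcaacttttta
Wwtr1, minus strand, chr3:57575911-57576160: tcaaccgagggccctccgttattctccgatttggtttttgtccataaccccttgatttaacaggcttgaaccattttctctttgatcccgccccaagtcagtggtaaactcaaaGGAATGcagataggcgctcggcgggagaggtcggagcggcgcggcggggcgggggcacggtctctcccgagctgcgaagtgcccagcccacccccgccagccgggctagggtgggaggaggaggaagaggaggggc
Vgll3, plus strand, chr16:65814939-65815188: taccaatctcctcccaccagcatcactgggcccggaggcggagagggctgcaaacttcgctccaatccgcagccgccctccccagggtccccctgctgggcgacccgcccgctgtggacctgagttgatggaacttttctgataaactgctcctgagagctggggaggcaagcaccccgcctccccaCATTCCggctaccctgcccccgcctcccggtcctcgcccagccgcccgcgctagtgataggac
Vgll4, minus strand, chr6:114969204-114969453: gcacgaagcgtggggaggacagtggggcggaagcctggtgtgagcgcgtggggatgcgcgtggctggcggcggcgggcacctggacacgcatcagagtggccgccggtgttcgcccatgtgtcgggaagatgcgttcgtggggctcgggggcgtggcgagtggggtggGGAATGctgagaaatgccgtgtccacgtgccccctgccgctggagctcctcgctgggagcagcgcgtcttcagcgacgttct
The motif begins 141 bases before the start in Yap1 (position -141), at -136 in Wwtr1, at -63 in Vgll3 and at -82 in Vgll4. Another Wwtr1 window, for a different start, holds the same match at -170. The Vgll4 window lies inside the annotated gene, which reaches 114969994, so it precedes an internal start. For 7 of the 11 windows, bases just after the start were found near the beginning of an annotated transcript. A match is a description of these letters and does not show that a TEAD binds there. Tead3 held 3 matches over its 3 windows, 1 at -182 in a window for 1 start and 2 at -123 and -114 in another. That other window has 217 of its 250 bases in annotated exons of Tead3, and both of its matches lie among them.

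Libraries were of similar depth, approximated at 12700000 to 15500000 fragments each. This came from the smallest steps in the values, which carry a scaling between libraries. FPKM here are fragments per kilobase after that scaling. Wild-type library 3 stands apart in 2 ways. It is the only library with a high level of Xist (121 FPKM against at most 0.155 in the other 5). It is also the only one with Ddx3y near 0 (0.353 against at least 30.7). That is the pattern of female tissue in 1 library and of male tissue in 5. The same library holds more skeletal muscle transcripts, with the 8 marker genes summing to 122 FPKM against 7.54 to 23.8 in the other 5. The tested members' log2 differences are therefore also given without it. So are the differences in share of Wwtr1, Tead1, Tead2, Tead3, Vgll3 and Vgll4. Among 15 stromal markers 4 were called lower in knockout kidneys by limma, among them Ntn1 and Lox, against 0.604% of all genes tested. Of the 15, 12 had a log2 difference below 0 and 3 above it. The 15 summed to 717 to 754 FPKM in knockout against 885 to 987 in wild-type libraries. Col3a1 gave the largest part of this sum, with means of 178 FPKM in knockout and 275 FPKM in wild-type kidneys. The sum of 12 smooth muscle and pericyte markers, of which 3 were called lower, was 165 to 186 against 276 to 300 FPKM. Of these 12, 8 had a log2 difference below 0 and 4 above it. Much of the fall in the sum came from Myl9, with means of 33.4 FPKM in knockout and 102 FPKM in wild-type kidneys. No stromal marker was at 0 in all libraries. The sums of the nephron progenitor (158 to 167 against 140 to 151 FPKM) and ureteric epithelium markers (287 to 289 against 242 to 248 FPKM) lay above wild type with 0 members called (limma; 1 of 7 and 7 of 10 were higher at an unadjusted p under 0.05, as were 9.14% of all genes tested). The part of these shifts in the results below was not tested.

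The family spans a wide range of levels, and the order of its members differed little between the genotypes. FPKM is scaled by transcript length, so levels of different genes can be set side by side. In wild-type kidneys the order of mean levels was Tead2, Yap1, Vgll4, Wwtr1, Tead1, Tead3, Tead4, Vgll3, Vgll2 and Vgll1. Only 2 neighbouring pairs in that order had overlapping ranges, Tead4 with Vgll3 and Vgll2 with Vgll1, although Yap1 at its lowest (45.5 FPKM) exceeded Vgll4 at its highest (45.0 FPKM) by a narrow margin. In knockout kidneys Vgll4 (49.5 FPKM at its lowest) stood above Yap1 (48.7 FPKM at its highest), and Tead3 stood above Tead1 with overlapping ranges. Among the 16899 genes tested, whose mean FPKM was 0.5 or more, Tead2 had a mean level above 94.5% of genes, Yap1 above 89.0%, Vgll4 above 88.7%, Wwtr1 above 63.4%, and Vgll3 above 7.76%.

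**Figure D1:**
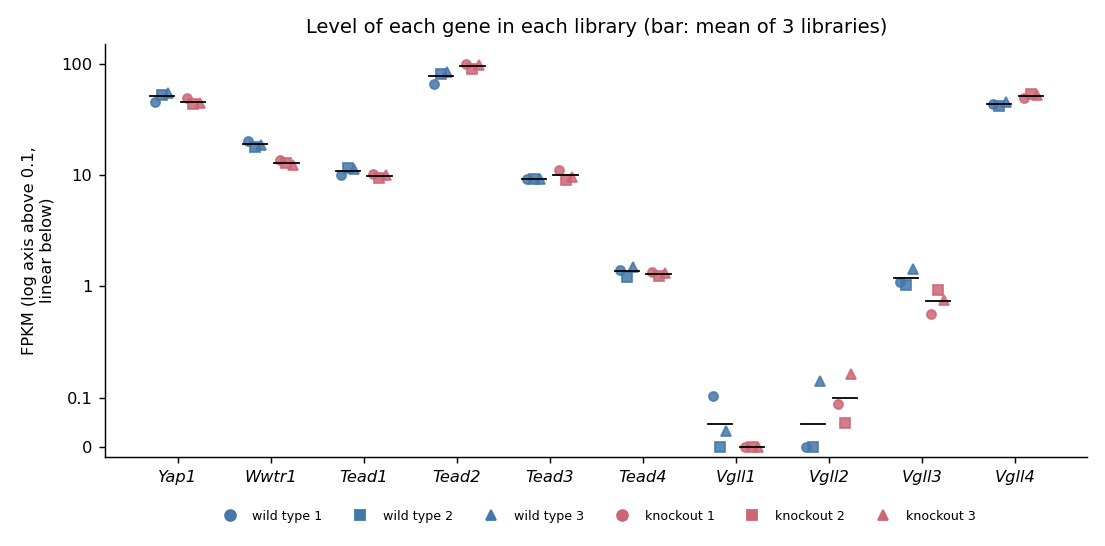
FPKM of each of the 10 genes in each library, on an axis that is logarithmic above 0.1 and linear below it, with blue points for wild-type and red points for knockout libraries (a marker shape for each library number) and a bar at the mean of 3 libraries. Wwtr1 and Vgll3 lie lower in all 3 knockout libraries, Tead2 and Vgll4 higher, and Vgll1 and Vgll2 are near 0.

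Of the 2 floxed genes, the one for TAZ fell and the one for YAP did not pass the test. Wwtr1 (ENSMUSG00000027803, chromosome 3, 57455649 to 57575910, minus strand, GRCm38) measured 20.2, 17.7 and 18.5 FPKM in wild-type libraries 1 to 3 and 13.5, 12.8 and 12.2 FPKM in knockout libraries 1 to 3. Every knockout value was below every wild-type value, and the gap between the groups exceeded the range within either one. The wild-type mean was 18.8 ± 1.26 FPKM and the knockout mean 12.9 ± 0.635 FPKM (SD, n = 3 each), or 68.4% of wild type. On the log2(FPKM + 1) scale the change, knockout minus wild type, was -0.51 (SE 0.07, 95% confidence interval -0.68 to -0.35, limma Benjamini-Hochberg adjusted p = 0.0235), and 0.438% of genes tested had a smaller p. With wild-type library 3 left out it was -0.53 (adjusted p = 0.0478). The call did not hold when wild-type library 2 (adjusted p = 0.0701) or knockout library 1, 2 or 3 (0.0682, 0.115 and 0.117) was left out. Nor did it hold with replicate number as a block (limma adjusted p = 0.108), and the labels do not say whether equal numbers mark pairs.

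Yap1 (ENSMUSG00000053110, chromosome 9, 7931999 to 8004596, minus strand) measured 45.5, 52.7 and 55.0 FPKM in wild-type libraries and 48.7, 43.2 and 44.2 FPKM in knockout libraries. The groups overlapped, because wild-type library 1 lay within the knockout range. The wild-type mean was 51.0 ± 4.95 FPKM and the knockout mean 45.4 ± 2.94 FPKM (SD, n = 3 each). The log2 difference of -0.16 had a 95% confidence interval from -0.36 to 0.03, which corresponds to 78.1% to 102% of wild type on the FPKM + 1 scale (limma adjusted p = 0.378). With wild-type library 1 left out it was -0.24 (adjusted p = 0.228) and with wild-type library 3 left out -0.11 (adjusted p = 0.535). Both are whole-gene values in which transcripts that lack floxed exons still count, and the labels do not name the floxed exons. The annotation lists 10 transcripts for Yap1 and 2 for Wwtr1, and 116 exonic bases of Yap1 are shared with the opposite-strand model Gm20416, which is not analysed here.

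Within the pair, Wwtr1 held a smaller share in every knockout library than in any wild-type library. It made up 30.8%, 25.2% and 25.2% of the summed FPKM of Yap1 and Wwtr1 in wild-type libraries and 21.7%, 22.9% and 21.7% in knockout libraries. The shares did not overlap, with wild-type library 1 well above the others. The mean share was 27.0% ± 3.21 in wild-type and 22.1% ± 0.713 in knockout kidneys (SD, n = 3 each), a difference of -4.95 percentage points (two-sided exact permutation p = 0.1, the smallest that 3 against 3 libraries allow). Without wild-type library 1 the difference was -3.09 points, and without wild-type library 3 it was -5.89 points. A share does not depend on how libraries are scaled to each other. Summed over both genes, the level was 65.7, 70.4 and 73.4 FPKM in wild-type libraries and 62.2, 56.0 and 56.5 FPKM in knockout libraries, with means of 69.8 and 58.2 FPKM.

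Among the TEAD genes, none of the 4 was called. Tead2 (ENSMUSG00000030796, chromosome 7, 45215753 to 45233644, plus strand), the member with the highest level in the family, measured 66.2, 80.7 and 83.7 FPKM in wild-type libraries and 98.6, 89.4 and 96.6 FPKM in knockout libraries. All knockout libraries lay above all wild-type libraries, and wild-type library 1 was the lowest of the 6. The means were 76.9 ± 9.39 FPKM (wild type) and 94.9 ± 4.83 FPKM (knockout) (SD, n = 3 each), or 123% of wild type. The log2 difference was 0.31 (SE 0.09, 95% confidence interval 0.09 to 0.52, limma adjusted p = 0.194). It was 0.20 without wild-type library 1 and 0.37 without wild-type library 3 (adjusted p = 0.274 and 0.121).

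Tead1 (ENSMUSG00000055320, chromosome 7, 112679318 to 112906807, plus strand), a widely expressed TEAD, measured 9.89, 11.6 and 11.2 FPKM in wild-type libraries and 10.2, 9.33 and 9.94 FPKM in knockout libraries. The groups overlapped, and the log2 difference of -0.14 had a 95% confidence interval from -0.32 to 0.05 (limma adjusted p = 0.443). For Tead1 it was -0.20 without wild-type library 1, -0.09 without wild-type library 2 and -0.12 without wild-type library 3. Tead3 (ENSMUSG00000002249, chromosome 17, 28331671 to 28350817, minus strand) stood at 9.21, 9.14 and 9.23 FPKM in wild-type and 11.2, 9.02 and 9.51 FPKM in knockout libraries. Its wild-type values were within 1.01-fold of each other, and knockout library 1 alone was clearly above them. The log2 difference of 0.09 for Tead3 (95% confidence interval -0.11 to 0.29, limma adjusted p = 0.641) was 0.01 without that library, 0.15 without knockout library 2 and 0.10 without wild-type library 3. Tead4 (ENSMUSG00000030353, chromosome 6, 128224288 to 128300823, minus strand), known for its role in the trophectoderm, was low at 1.40, 1.20 and 1.499 FPKM in wild-type and 1.35, 1.22 and 1.30 FPKM in knockout libraries, which is about 48 to 62 fragments a library. Its groups overlapped (log2 -0.04, 95% confidence interval -0.27 to 0.18, limma adjusted p = 0.85). The Tead4 difference was -0.10 without wild-type library 2 and -0.0043 without wild-type library 3.

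Tead2 gave a larger part of the TEAD pool, and Tead1 a smaller part, in every knockout library than in any wild-type library. Tead2 accounted for 76.3%, 78.6% and 79.2% of the summed FPKM of Tead1 to Tead4 in wild-type libraries and for 81.2%, 82.0% and 82.3% in knockout libraries. Tead1 accounted for 11.4%, 11.3% and 10.6% in wild-type libraries and for 8.44%, 8.56% and 8.47% in knockout libraries. Neither gene's shares overlapped between the genotypes, and the knockout shares of Tead1 lay within a narrow band. The 4 shares of a library add up to the whole, so a larger Tead2 share makes the others smaller together. The levels of Tead1 and Tead4 themselves overlapped between the genotypes. Levels of single genes did not overlap downward in 11.8% and upward in 12.5% of all genes tested, and no such percentage was computed for shares. The difference in mean share was 3.80 percentage points for Tead2 and -2.63 for Tead1 (exact permutation p = 0.1 each, the smallest possible, so no share could pass the threshold). Tead3 made up 8.73% to 10.6% in wild-type and 8.11% to 9.21% in knockout libraries with overlap (exact permutation p = 0.3), and Tead4 1.17% to 1.62% against 1.11% to 1.12% without overlap (exact permutation p = 0.1). Leaving out wild-type library 1 moved the Tead3 difference from -0.885 to -0.283 points and the Tead4 difference from -0.286 to -0.177 points. Without wild-type library 3 the differences were 4.38 points for Tead2, -2.88 for Tead1 and -1.23 for Tead3. The ratio of Tead2 to Tead1 was 6.69, 6.94 and 7.46 in wild-type libraries and 9.62, 9.58 and 9.72 in knockout libraries. In all, 7 shares were tested this way, for Wwtr1, the 4 TEAD genes, Vgll3 and Vgll4.

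**Figure D2:**
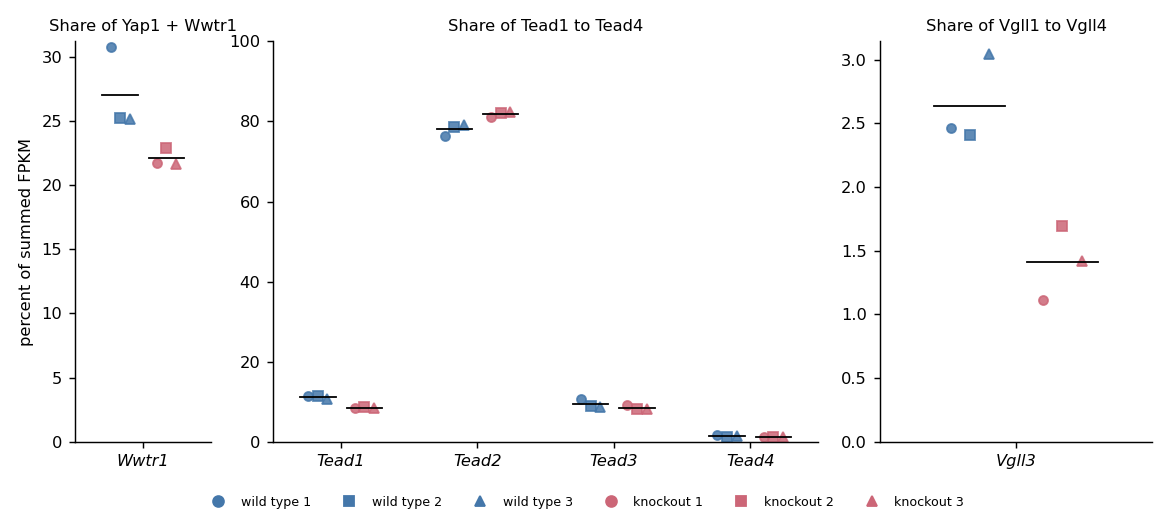
Share of summed FPKM in percent for Wwtr1 within the co-activator pair (left), each TEAD gene within Tead1 to Tead4 (middle) and Vgll3 within Vgll1 to Vgll4 (right), for each wild-type (blue) and knockout (red) library, with bars at the means. The axes start at 0 and differ in range; Tead2 lies at 76.3% to 79.2% in wild-type and 81.2% to 82.3% in knockout libraries.

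Reads that fit more than 1 paralogue could blur such shares, so the overlap in sequence was counted. Of all stretches of 31 bases in the annotated transcripts, 29 were common to Tead3 and Tead4 and 5 to Tead2 and Tead3. Every other pair among the 10 members shared 0. These are small numbers beside the 4946 distinct stretches of Tead2, 6841 of Tead3 and 3643 of Tead4. Tead2 shares 13 exonic bases with the opposite-strand gene Cd37, which lay at or below 0.791 FPKM in every library.

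The VGLL genes were represented almost entirely by Vgll4. Vgll4 (ENSMUSG00000030315, chromosome 6, 114860628 to 114969994, minus strand), the TEAD co-repressor, measured 43.0, 41.4 and 45.0 FPKM in wild-type libraries and 49.5, 53.3 and 52.2 FPKM in knockout libraries. All knockout libraries lay above all wild-type libraries. The means were 43.2 ± 1.83 FPKM (wild type) and 51.6 ± 1.93 FPKM (knockout) (SD, n = 3 each), or 120% of wild type. The log2 difference, 0.25 (SE 0.06, 95% confidence interval 0.12 to 0.38), was not called (limma adjusted p = 0.106), and 1.95% of genes tested had a smaller p. Over all alternatives it stayed between 0.22 and 0.28 with an adjusted p between 0.0751 and 0.328. It was 0.28 with wild-type library 3 left out (adjusted p = 0.0867).

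Vgll3 (ENSMUSG00000091243, chromosome 16, 65815257 to 65866368, plus strand) was low, at 1.09, 1.02 and 1.42 FPKM in wild-type and 0.559, 0.918 and 0.753 FPKM in knockout libraries. These values correspond to about 97 to 133 fragments in wild-type and 57 to 83 in knockout libraries, if all come from the longest transcript. The groups did not overlap, and the highest value was that of wild-type library 3, the library with the most skeletal muscle transcripts. The means were 1.18 ± 0.214 FPKM (wild type) and 0.743 ± 0.180 FPKM (knockout) (SD, n = 3 each), or 63.1% of wild type. The log2 difference was -0.32 (95% confidence interval -0.61 to -0.04, limma adjusted p = 0.267). At a level near 1 FPKM the pseudocount of 1 damps this value, which was -0.61 with a pseudocount of 0.1 (adjusted p = 0.274), and -0.24 when wild-type library 3 was left out (adjusted p = 0.33). Vgll3 made up 2.46%, 2.41% and 3.05% of the summed VGLL level in wild-type libraries and 1.11%, 1.69% and 1.42% in knockout libraries (exact permutation p = 0.1), while Vgll4 made up 96.6% to 97.6% and 98.2% to 98.7% (exact permutation p = 0.1). The Vgll3 difference of -1.23 points was -1.03 without wild-type library 3, and the Vgll4 difference of 1.24 points was 0.954. Together these 2 shares made up nearly the whole, so they are not independent of each other.

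The remaining VGLL genes were at the limit of detection and were not tested. Vgll1 (ENSMUSG00000031131, chromosome X, 57088106 to 57106540, plus strand) was listed at 0.104, 0 and 0.033 FPKM in wild-type libraries, about 3, 0 and 1 fragments, and at 0 in all 3 knockout libraries. Vgll2 (ENSMUSG00000049641, chromosome 10, 52022502 to 52028471, plus strand) was listed at 0, 0 and 0.142 FPKM in wild-type and 0.0866, 0.0494 and 0.163 FPKM in knockout libraries, at most about 4 fragments. The highest Vgll2 values, in knockout library 3 and wild-type library 3, rest on about 4 and 3 fragments, too few to rank the libraries. Markers of epithelia and skeletal muscle were present. The 10 ureteric epithelium genes summed to 242 to 289 FPKM over the 6 libraries, the 6 urothelium genes to 7.55 to 13.4 FPKM in wild-type and 8.48 to 9.54 FPKM in knockout libraries, and the 8 skeletal muscle genes to 11.7 to 23.8 FPKM in knockout libraries and up to 122 FPKM in wild-type library 3. Differences in Vgll1 or Vgll2 were not detectable at this depth.

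**Figure D3:**
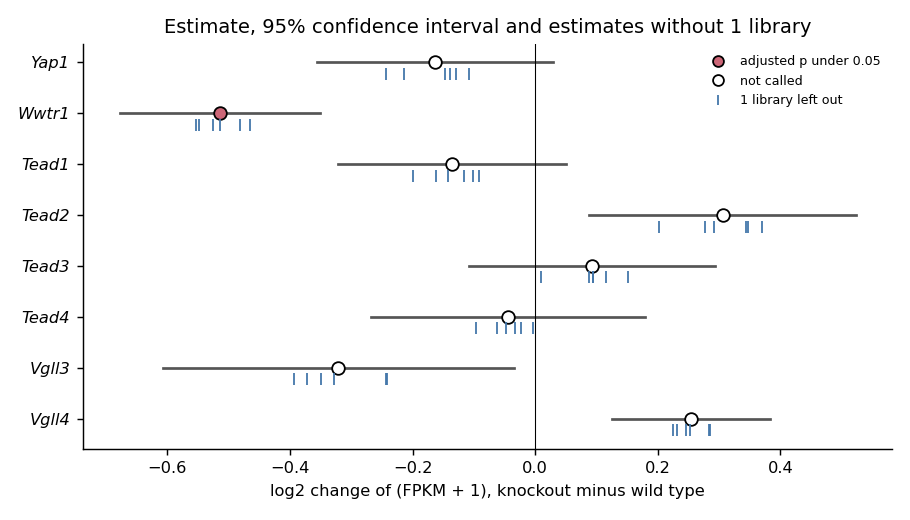
Log2 change of (FPKM + 1), knockout minus wild type, for the 8 tested members (circles, filled where the adjusted p is under 0.05) with 95% confidence intervals (lines) and the estimates when 1 library is left out (ticks). Wwtr1 at -0.51 is the only filled circle, and the intervals of Tead2, Vgll3 and Vgll4 also lie to 1 side of 0.

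Set against the whole table, the family held 1 called gene, and that gene is one of the 2 targeted by the design. Of the 8 members that passed the filter on low values (Vgll1 and Vgll2 did not), 1 was called lower and 0 higher by limma, while over all genes tested 0.734% were called, 0.604% lower and 0.130% higher. The last share rests on 22 genes, which became 51 without wild-type library 3. At an unadjusted p under 0.05, 2 members were lower (Wwtr1 and Vgll3) and 2 higher (Tead2 and Vgll4), against 6.94% of all genes lower, 9.14% higher and 16.1% in either direction. The same 4 members were those whose groups did not overlap, a pattern seen downward in 11.8% and upward in 12.5% of all genes tested. The median log2 difference was -0.09 over the 8 members and -0.002 over all genes tested. With n = 3 a group and no label naming separate animals or litters, the p-values measure the spread between these libraries.

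**Figure D4:**
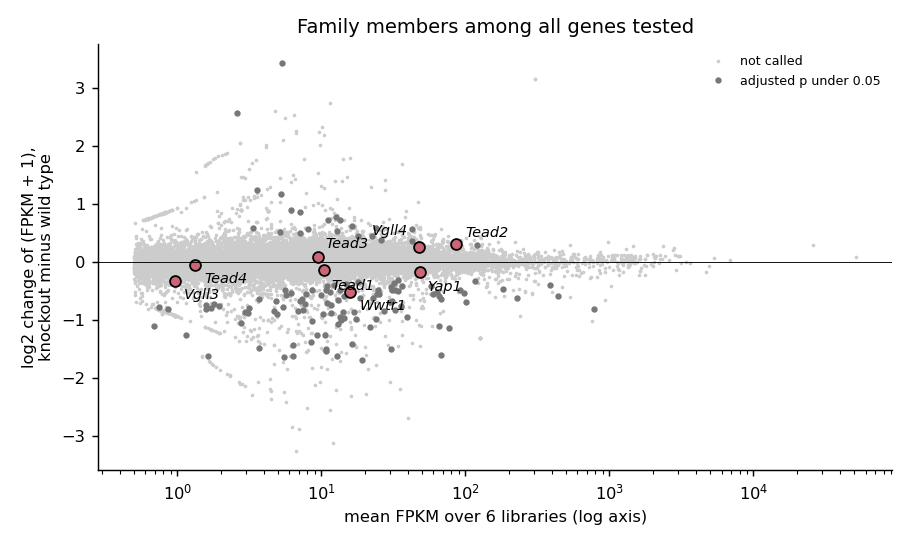
Log2 change of (FPKM + 1), knockout minus wild type, against mean FPKM over 6 libraries (logarithmic axis) for all 16899 genes tested, with called genes in dark grey and the 8 tested family members in red. The members other than Wwtr1 lie within the cloud of genes that were not called.

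The proportions between co-activators, TEADs and Vgll4 are described without a test, since they combine members. The summed level of Yap1 and Wwtr1 per summed level of Tead1 to Tead4 was 0.757, 0.685 and 0.695 in wild-type libraries and 0.512, 0.514 and 0.481 in knockout libraries. Vgll4 per summed Yap1 and Wwtr1 was 0.655, 0.588 and 0.613 in wild-type libraries and 0.796, 0.951 and 0.924 in knockout libraries. Neither ratio overlapped between the genotypes. Both contain Wwtr1, whose own groups did not overlap, so they are not results independent of it. Vgll4 per summed TEAD level did overlap, at 0.403 to 0.496 in wild-type and 0.408 to 0.489 in knockout libraries. Summed TEAD level was 86.7, 103 and 106 FPKM in wild-type and 121, 109 and 117 FPKM in knockout libraries, of which Tead2 was the main part.

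**Figure D5:**
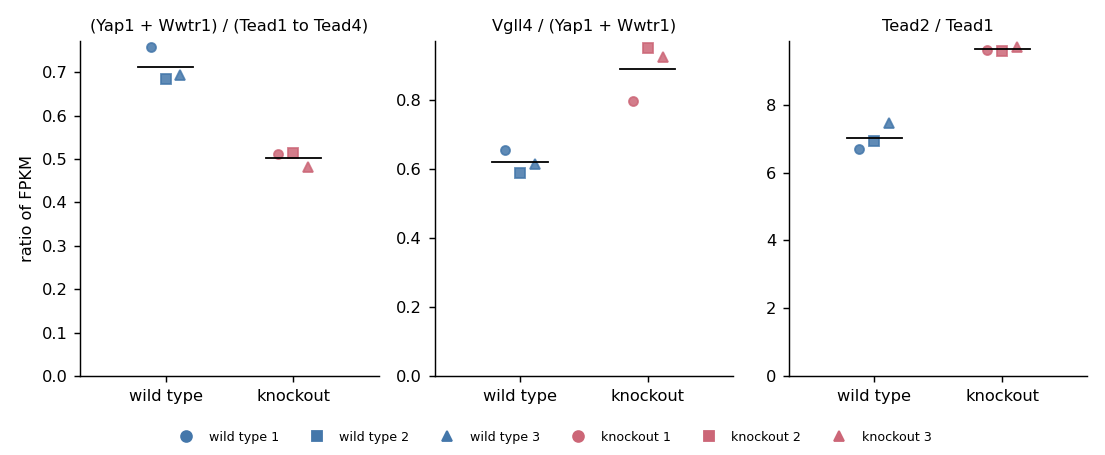
Ratios of FPKM in each wild-type (blue) and knockout (red) library for the co-activators per TEAD sum (left), Vgll4 per co-activators (middle) and Tead2 per Tead1 (right), with bars at the means and axes starting at 0. Each of the 3 ratios separates the genotypes, with 0.685 to 0.757 against 0.481 to 0.514 in the left panel. Each contains a member whose own groups did not overlap.

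Pathway genes around the family gave no calls. Of 27 other Hippo pathway genes, all tested, 0 were called by limma in either direction, 5 were lower and 2 higher at an unadjusted p under 0.05, and the median log2 difference was -0.03. Over all genes tested 6.94% were lower and 9.14% higher at that p. The median of the pathway genes was -0.05 without wild-type library 1 and -0.01 without wild-type library 3. The smallest p belonged to Fat4, a giant cadherin of the stroma that acts upstream of the pathway, with 30.6, 33.7 and 32.7 FPKM in wild-type and 27.7, 23.4 and 25.3 FPKM in knockout libraries (log2 -0.34, SE 0.07, adjusted p = 0.103). Next was Lats2, a kinase that phosphorylates YAP and TAZ and is itself a YAP target in other cells, with 13.1, 15.2 and 13.5 against 11.1, 10.8 and 11.3 FPKM (log2 -0.30, SE 0.07, adjusted p = 0.129). Both genes, picked for the smallest p, were lower in every knockout library than in any wild-type library. Of the 27 genes, 6 were lower and 3 higher without overlap, against 11.8% and 12.5% of all genes tested.

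Of 24 genes known as YAP and TAZ targets in other cells, 22 were tested and 0 called by limma, with 7 lower and 2 higher at an unadjusted p under 0.05 and a median log2 difference of 0.03. The shares over all genes are again 6.94% lower and 9.14% higher. Of the 22, 6 were lower and 3 higher without overlap between the groups, against 11.8% and 12.5% of all genes tested. The largest differences without overlap were Ccn2 and Ccn1 downward, at 66.5% and 69.8% of wild type (limma adjusted p = 0.229 and 0.162). Upward they were Myc and Fjx1, at 144% and 142% of wild type (limma adjusted p = 0.176 and 0.227). The sign of the median depended on single libraries, with -0.05 without wild-type library 1, -0.0042 without wild-type library 3 and -0.01 without knockout library 1. This list shares Lats2 and 4 other genes with the pathway list. The smallest p belonged to Rbms3, an RNA-binding protein gene, with 49.0, 48.5 and 50.9 FPKM in wild-type and 43.3, 39.5 and 39.9 FPKM in knockout libraries (adjusted p = 0.0929), followed by Igfbp3, a binding protein of insulin-like growth factors (adjusted p = 0.104).

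The genes whose pattern over the 6 libraries was most like that of the floxed genes were looked up among 11077 genes whose mean reached 5 FPKM. For Wwtr1 these were Lama4, a laminin chain of vascular basement membranes (Pearson r = 0.997 of log2(FPKM + 1)), Pja2, a ubiquitin ligase (r = 0.996), and Ogn, a matrix proteoglycan (r = 0.991). For Yap1 they were Tmem64 (r = 0.992), Eml1, a microtubule-associated protein (r = 0.988), and Afap1, which binds actin filaments (r = 0.982). The genes matched to Wwtr1 differ widely in size of difference: Lama4 averaged 52.3 FPKM in wild-type against 44.8 FPKM in knockout kidneys, and Ogn 29.6 and 8.51 FPKM. These correlations describe 6 libraries, chosen as the highest of many, and carry no p.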

How the data were processed

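Gene expression was measured by RNA sequencing in 3 knockout and 3 wild-type libraries. The submitters' processing notes name bcl2fastq 2.17.1.14, Salmon and GRCm38 (mm10). The Salmon version, annotation release and strandedness of the libraries are not given there. FPKM values were deposited by the authors for 24749 Ensembl genes and already carried a scaling between libraries (the median log2 ratio to each gene's geometric mean was 0.0038 in every library). Symbols were matched for 24469 identifiers, and gene models were taken from GENCODE M21. The values are not counts, so limma 3.58.1 (R 4.3.3) was fitted to log2(FPKM + 1) with genotype as the only term, trend and robust moderation, over the 16899 genes whose mean reached 0.5 FPKM. Calls required a Benjamini-Hochberg adjusted p under 0.05. Percentages of wild type compare mean FPKM. Shares were computed per library and compared by an exact two-sided permutation test over 20 assignments. Depth was approximated from the lowest value step of genes with a single transcript of at least 2 kb, taking full annotated length. The fit was tested on simulated data. Alternatives covered pseudocount, filter, scaling, moderation, replicate block and leaving out each library. Named genes were the 10 members, the 2 genes with the smallest p in the pathway, target and stromal marker lists, and the 3 genes most correlated with Wwtr1 and with Yap1. Xist, Ddx3y, Cd37 and Gm20416 stand outside this rule, as checks of libraries and overlapping models. So do Col3a1 and Myl9, named for their part in marker sums. Ccn1, Ccn2, Myc and Fjx1 were named as the targets with the 2 largest differences without overlap in each direction. Members, gene lists and the motif search were chosen with earlier results of these data known. The marker lists for early nephron and podocyte (1 of 9 called higher), endothelium (0 of 7 called), macrophage (0 of 6), adrenal cortex (0 of 1 tested), red blood cell (0 of 7), urothelium (0 of 3 tested) and skeletal muscle (0 of 7 tested) served as checks of tissue content.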

Additional observations from a re-analysis of the deposited data

How the results depend on the processing

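The direction of all 8 tested members held under every alternative run (Vgll3 drops out at a mean of at least 1 FPKM), with log2 changes from -0.55 to -0.46 for Wwtr1 and from -0.24 to -0.11 for Yap1. The Wwtr1 call (adjusted p from 0.0204 to 0.117 over all alternatives) did not hold after rescaling to equal library sums (log2 -0.53, adjusted p = 0.0516), without trend and robust moderation (log2 -0.51, adjusted p = 0.0636) and with the replicate block (log2 -0.51, adjusted p = 0.108), which left 0 members called in each case. Leaving out single libraries left between 0 and 1 member called, with the Wwtr1 log2 change between -0.55 and -0.46; fewer samples enter each such fit. Over all genes, 124 were called, 75 without trend and robust moderation, 32 with the replicate block, and 52 to 147 without single libraries. Without wild-type library 3 the lower calls went from 102 to 96 and the higher calls from 22 to 51, so the lower share moved from 82.3% to 65.3%. Deviations of equally numbered libraries correlated at 0.024, -0.042 and 0.05, and those of unequally numbered ones at -0.093 to 0.081. The numbers thus showed no sign of pairing, but so few values cannot exclude it. The 7 shares kept their direction throughout. FPKM near 0 (Vgll1, Vgll2) rest on at most about 4 fragments a library, which limits them.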
